A study of Mus musculus with 9 samples.

Results

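Functional INS-p25OE tumors of the mouse pancreas were compared with normal islets by RNA sequencing. The comparison took 6 of the 9 libraries of the series, the 3 tumors that the study calls functional and whose labels carry the word Inulin (M1, M2 and M3) and the 3 libraries labelled normal islet (NI1, NI2 and NI3), 1 sample each, and left out the 3 non-functional tumors. The tumors came from bi-transgenic mice, in which the Ins2-rtTA transgene (the reverse tetracycline transactivator under the insulin promoter) turns on tetOp-p25GFP in beta cells once doxycycline is given. According to the labels, doxycycline was given in the drinking water at 1 mg/L from weaning at 3 to 4 weeks of age, a dose that is also written in g/L elsewhere. All mice were of the C57BL/6 background, and the study names transgene-negative littermates as its normal controls, while the islet labels give only the strain C57BL/6. M2 was labelled female and the other 5 samples male. The age at collection is not given, and the study calls its samples biological replicates.

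Beta cells make, store and release insulin, and in the adult islet they seldom divide. Cdk5 is a kinase that needs the protein p35, encoded by Cdk5r1, for its activity, and p25 is a stable fragment of p35 that keeps Cdk5 active. A tumor of such cells holds dividing endocrine cells together with a stroma of fibroblasts, vessels and immune cells, and an islet preparation holds all the islet's endocrine cell types together with whatever exocrine tissue stays attached to it. In bulk RNA, fewer cells of a type and less RNA per cell cannot be told apart.

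Levels are given as CPM, the counts relative to library size after scaling of the libraries by edgeR's TMM method, and a difference is the log2 fold change of tumors over islets with its standard error (SE). A gene was called at an adjusted p under 0.05, where p came from the quasi-likelihood test of edgeR, with Benjamini-Hochberg adjustment across all 15020 tested genes. Each comparison was fitted with all 3 islet libraries and again without the library labelled NI1, because of its Cdk5r1. Cdk5r1 (ENSMUSG00000048895, chromosome 11, 80477023 to 80481184, GRCm38) had 301, 206 and 424 CPM in M1, M2 and M3, 293 CPM in the library labelled NI1, 19.1 CPM in NI2 and 12.9 CPM in NI3. The library labelled NI1 therefore lay within the range of the tumors, against its label, and the groups overlapped. The log2 fold change of Cdk5r1 was 1.52 (SE 1.13, adjusted p = 0.462) with 3 islet libraries and 4.26 (SE 0.42, adjusted p = 0.0119) without the library labelled NI1. The second value follows from the choice, as that library was left out for its high Cdk5r1, and its p is not a test of Cdk5r1. Counts at Cdk5r1 can come from the transgene as well as from the mouse's own gene, and these were not separated.

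Between 41769849 and 63637175 counts were assigned to genes per library, and mitochondrial genes took 1.76% to 6.96% of them. Ins1 and Ins2 together took 8.83%, 1.75% and 1.47% of the counts in M1, M2 and M3, and 12.2%, 24.8% and 26.0% in the library labelled NI1, NI2 and NI3. On log2(CPM + 1), the library labelled NI1 was 86.5 from M1 (Euclidean distance over the genes tested), nearer than to NI2 (93.1) or NI3 (104.8), while NI2 and NI3 were 58.7 apart. The sex label of M2 went with its RNA, since Xist, which is transcribed from the inactive X chromosome, had 1140 CPM and the Y-linked Ddx3y 0.0434 CPM. M1, labelled male, had 55.5 CPM of Xist together with 27.2 CPM of Ddx3y, against at most 0.692 CPM of Xist in the other libraries labelled male and 35.6 to 79.0 CPM of Ddx3y. M1 thus held transcripts of both kinds, and the counts of called genes, and those of the lists with most calls, are given without it as well.

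With all 3 islet libraries, 56 genes rose (0.373% of those tested) and 107 genes fell (0.712%). At an unadjusted p under 0.05 there were 1631 higher and 1603 lower genes, and DESeq2 on the same libraries called 880 and 923. Every tumor lay above every islet library for 2246 genes (15.0%) and below for 2140 genes (14.2%). These calls were sensitive to single libraries. Leaving out M1, M2 or M3 left 8, 5 or 2 higher and 1, 0 or 0 lower genes, and leaving out NI2 or NI3 left 1 or 6 higher and 0 or 24 lower genes.

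Without the library labelled NI1, 758 genes rose (5.05%) and 507 fell (3.38%), among them all 56 and all 107 genes called with it. Without M1 as well the counts were 485 and 382, without M2 981 and 752, and without M3 281 and 233. With NI3 as the lone islet library the counts were 36 higher and 45 lower genes, and with NI2 alone 9 and 38, fits that assume a lone library to vary like the tumors. Only 6 of the 758 and 23 of the 507 genes were called whichever of these 5 libraries was left out. Most other calls named here needed NI2, NI3 or both. The plot of members called per gene list shows both fits side by side.

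**Figure D1:**
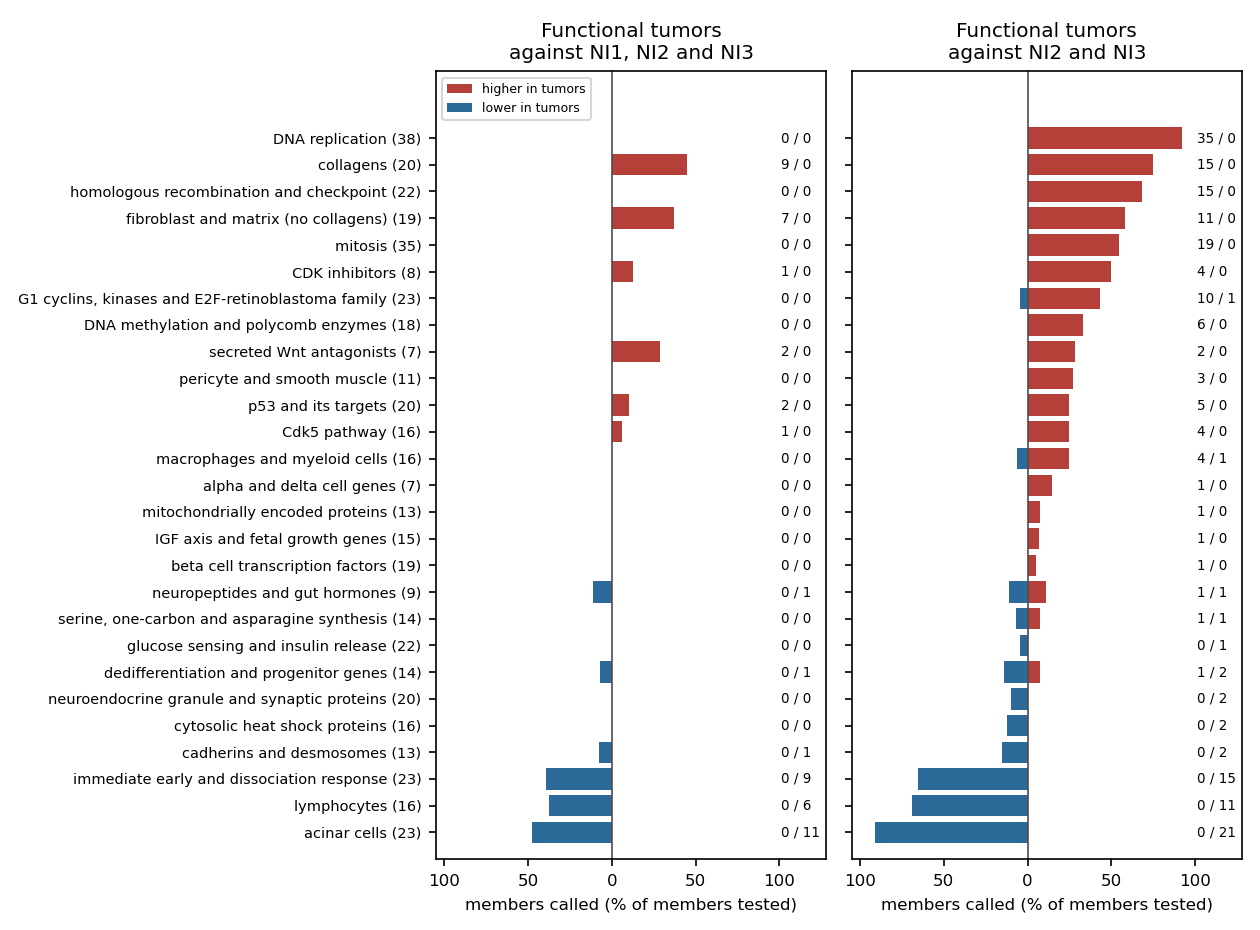
Share of the tested members of each gene list that were called higher (red, to the right) or lower (blue, to the left) in functional tumors, in percent, with the number tested in parentheses and the counts higher / lower at the right of each panel. Lists with at least 1 call are shown. Collagens went from 9 to 15 higher members when the library labelled NI1 was left out, and DNA replication from 0 to 35.

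The hormone genes were described first, because the tumors are named for insulin. None of the 7 tested hormone genes passed in either fit under edgeR (2 and 4 were lower at an unadjusted p under 0.05, DESeq2 called 3 and 6, and limma-voom 0), while all 7 log2 fold changes were below 0, with a median of -2.31 against 0.01 over all genes tested. Ins2 (the main insulin gene of the mouse) had 59307, 9758 and 7731 CPM in the tumors and 93256, 242170 and 256420 CPM in the library labelled NI1, NI2 and NI3. Every tumor lay below every islet library, and M1 lay nearer to the library labelled NI1 than to the other tumors. The log2 fold change was -2.95 (SE 1.31, adjusted p = 0.249), and -3.30 (SE 1.41, adjusted p = 0.184) without the library labelled NI1.

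Ins1 had 21977, 6378 and 4046 CPM in the tumors and 22716, 59394 and 78353 CPM in the islet libraries (log2 fold change -2.31, SE 0.96, adjusted p = 0.228). Gcg, which encodes glucagon and marks alpha cells, had 10.3, 244 and 52.9 CPM in the tumors against 826, 2403 and 14699 CPM in the islet libraries. No overlap was seen for Gcg, yet its log2 fold change of -5.87 (SE 1.62) had an adjusted p of 0.134, and -6.39 (SE 1.53) one of 0.0583 without the library labelled NI1. Sst, the hormone of delta cells, ranged from 2.90 CPM in M3 to 2584 CPM in M2, and from 83.8 to 2474 CPM in the islet libraries, so that the groups overlapped throughout. Iapp, the amylin gene that is co-released with insulin, had 6216 to 16738 CPM in tumors and 9617 to 35956 CPM in islets (log2 fold change -1.32, SE 0.75, adjusted p = 0.344). Its level in the library labelled NI1 (9617 CPM) lay among the tumors.

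Transcription factors that define the beta cell gave no call with 3 islet libraries, while 4 were higher at an unadjusted p under 0.05 and by DESeq2, and 0 by limma-voom. Of 19 tested, 0 were called with 3 islet libraries and 1 without the library labelled NI1, and their median log2 fold change was -0.01. Pdx1, needed for the growth of the pancreas and for insulin transcription, had 201, 244 and 223 CPM in the tumors and 150, 138 and 155 CPM in the islet libraries. Here every tumor lay above every islet library, but the log2 fold change of 0.60 (SE 0.16) did not pass (adjusted p = 0.131). Nkx6-1 had a log2 fold change of -0.36 and Mafa, a factor of mature beta cells, one of -0.27, and neither passed (adjusted p = 0.535 and 0.691).

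Genes of glucose sensing and insulin release gave 0 calls among 22 under edgeR with 3 islet libraries (2 higher and 4 lower with an unadjusted p under 0.05, 2 and 3 by DESeq2), and those of neuroendocrine granules 0 among 20 (1 and 3 by either measure). Limma-voom called 0 in both lists. Without the library labelled NI1, Pam, an enzyme that amidates peptide hormones, fell by 1.92 on the log2 scale (SE 0.36, adjusted p = 0.035), Scg5, a chaperone of a prohormone convertase, by 1.95 (SE 0.31, adjusted p = 0.0241), and Ptprn, a granule membrane protein, by 1.70 (SE 0.32, adjusted p = 0.0354). Chga, the chromogranin used to stain neuroendocrine tumors, had 22525 CPM in M1, and 3781 and 4902 CPM in M2 and M3. It had 7262 to 21900 CPM in the islet libraries, and so the groups overlapped (log2 fold change -0.61, adjusted p = 0.699). Slc2a2, the glucose transporter of mouse beta cells, showed the same spread among tumors, with 327 CPM in M1, 23.3 CPM in M2 and 79.3 CPM in M3. Sstr2, a somatostatin receptor, was below the filter, with 0.0416 to 0.116 CPM in tumors and 0.0761 to 1.74 CPM in islets.

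**Figure D2:**
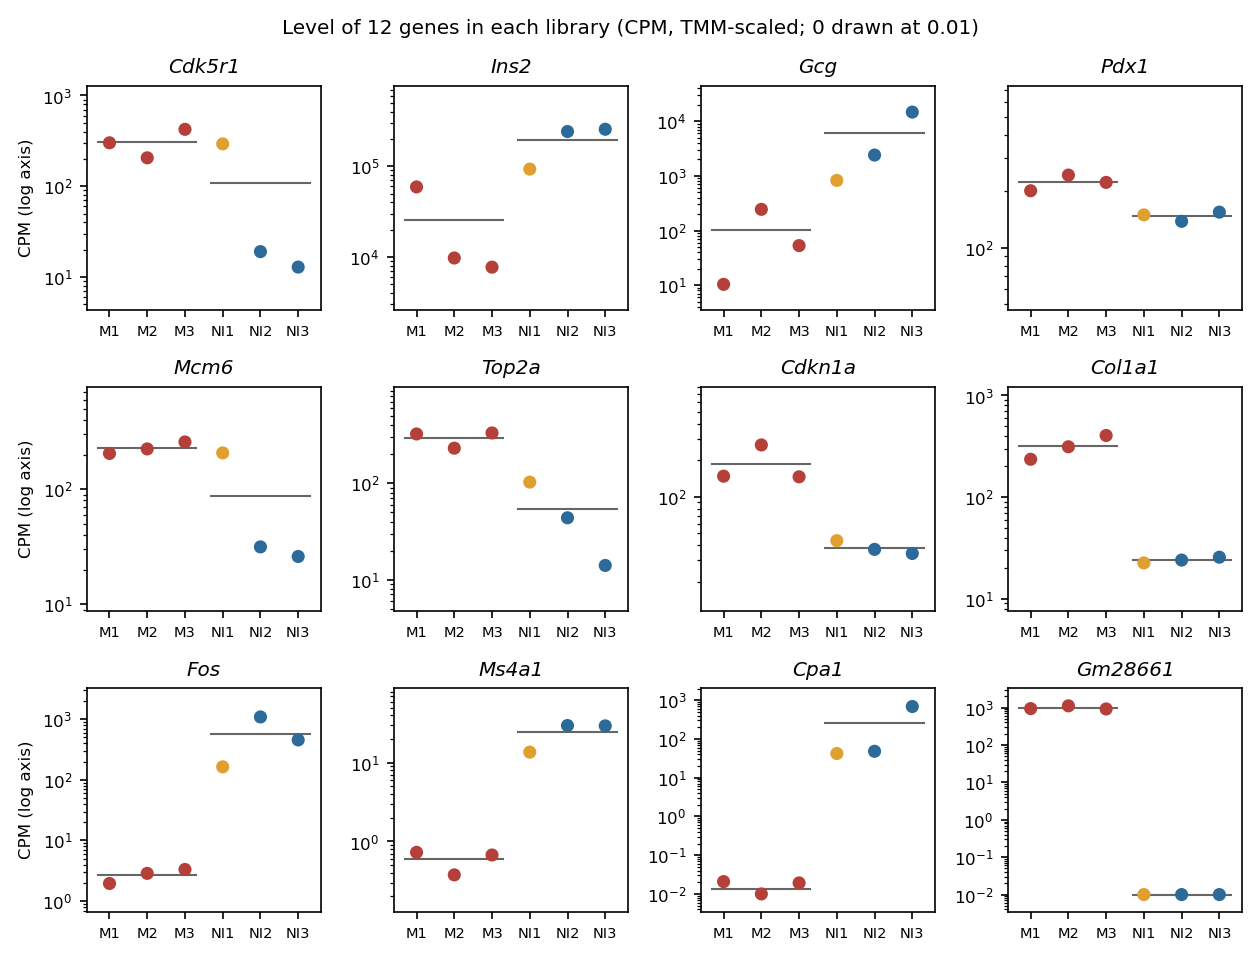
Level of 12 genes in each library in CPM on log axes (red, tumors; orange, the library labelled NI1; blue, NI2 and NI3), with lines at the mean of the 3 tumors and of the 3 islet libraries and a level of 0 drawn at 0.01. The library labelled NI1 sits with the tumors for Cdk5r1 and Mcm6 and with NI2 and NI3 for Col1a1, Cdkn1a and Gm28661.

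Of the Cdk5 pathway, 1 of 16 tested members rose with 3 islet libraries and 4 without the library labelled NI1, none fell, and the median log2 fold change was -0.07 and -0.14. Cdk5r1 was among the 4. That library was left out for its high Cdk5r1, so this call follows from the choice. The 1 became 0 without any 1 of the tumors, NI2 or NI3, and the 4 became 0 without NI2 or NI3. Cdk5 itself had 38.7, 41.1 and 34.4 CPM in the tumors and 37.5, 42.8 and 39.1 CPM in the islet libraries (log2 fold change -0.06, SE 0.17, adjusted p = 0.846). The member that rose in both fits was Cdk5rap2, a centrosome protein first found as a partner of the p35 subunit, with 56.9, 67.9 and 86.6 CPM against 31.4, 26.8 and 23.5 CPM. The groups did not overlap (log2 fold change 1.37, SE 0.22, adjusted p = 0.0481). Against NI2 and NI3, Cables1, an adaptor that links Cdk5 to the kinase Abl, rose by 1.84 (SE 0.35, adjusted p = 0.0352) and Suv39h1, a histone H3 lysine methyltransferase, by 1.69 (SE 0.27, adjusted p = 0.0241).

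Genes of the cell cycle were higher in tumors than in NI2 and NI3, and under edgeR the library labelled NI1 decided the calls. Of 38 genes of DNA replication, 0 passed with 3 islet libraries and 35 rose without the library labelled NI1, while the median log2 fold change was 1.5 and 2.47. Of 22 genes of homologous recombination and its checkpoint, 0 and 15 rose, and of 35 genes of mitosis 0 and 19 rose. None of these genes fell. When M1 was left out as well as the library labelled NI1, 30 replication, 9 recombination and 4 mitosis genes rose. With M2 left out instead of M1 the counts were 35, 16 and 14, and with M3 left out 25, 7 and 2. With 3 islet libraries, 19, 14 and 34 genes of the replication, recombination and mitosis lists were higher at an unadjusted p under 0.05, DESeq2 called 14, 13 and 31, and limma-voom called 0. The 35, 15 and 19 calls without the library labelled NI1 became 2, 2 and 3 when NI2 was left out too, and 0 in each when NI3 was. Summed over the replication genes, the level was 2166, 2565 and 3117 CPM in M1, M2 and M3, 1979 CPM in the library labelled NI1, and 489 and 421 CPM in NI2 and NI3.

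Mcm6, a subunit of the helicase that opens DNA at replication origins, had 205, 224 and 258 CPM in the tumors, 207 CPM in the library labelled NI1, and 31.6 and 26.1 CPM in NI2 and NI3. For this gene the library labelled NI1 lay between M1 and M2, and the remaining islet libraries were well apart from the tumors. The log2 fold change was 2.97 (SE 0.23, adjusted p = 0.00734) without that library and 1.38 (SE 0.78, adjusted p = 0.344) with it. Its fellow subunits Mcm2, Mcm3 and Mcm4 changed by 3.38, 3.48 and 2.92 without the library labelled NI1 (adjusted p = 0.00781, 0.00678 and 0.00781). Mcm3 had 126, 163 and 174 CPM in the tumors and 108 CPM in the library labelled NI1, which lay below every tumor there and within the range of the tumors for Mcm2, Mcm4 and Mcm6.

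Replication genes are classic targets of E2F, the transcription factor that the retinoblastoma protein holds back until the cell enters S phase. The RefSeq promoters (GRCm38.p6, 250 bases before to 50 bases after the start of the gene) were searched on both strands for TTTCCCGC and TTTGGCGC, and the promoters of Mcm6, Cdk2 and Brca2 are shown as members of 3 of the lists that held a match before the start. Capitals mark the match, and each is read along the strand of the gene.
Mcm6, chr1:128359729-128359768, minus strand: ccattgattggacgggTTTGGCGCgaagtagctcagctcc
Mcm6, chr1:128359792-128359831, minus strand: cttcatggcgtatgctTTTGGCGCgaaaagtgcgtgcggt
Cdk2, chr10:128705168-128705207, minus strand: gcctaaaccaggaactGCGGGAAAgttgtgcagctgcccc
Brca2, chr5:150522437-150522476, plus strand: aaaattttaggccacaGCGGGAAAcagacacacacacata
A match was found in 11 of the 30 replication genes with a promoter entry (36.7%), in 5 of 17 genes of the G1 phase, in 3 of 17 genes of homologous recombination and in 0 of 27 genes of mitosis. Outside the cell cycle, 2 of 12 genes of MHC class I presentation (16.7%) held one, and 0 of 16 collagens. Of all tested genes with an entry, 368 of 11147 had one (3.30%), and of the genes called higher and lower without the library labelled NI1, 58 of 556 (10.4%) and 3 of 360 (0.833%). A match describes the letters of the window and is not a binding site.

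In the G1 phase list, 10 of 23 genes rose and 1 fell without the library labelled NI1, and 0 passed under edgeR with it (8 higher and 3 lower with an unadjusted p under 0.05, 7 and 2 by DESeq2, 0 by limma-voom). Ccne2, the cyclin that drives entry into S phase, had 33.8, 35.4 and 41.1 CPM in the tumors, 24.8 CPM in the library labelled NI1 and 6.19 and 5.42 CPM in NI2 and NI3 (log2 fold change 2.65, SE 0.24, adjusted p = 0.0103). Its partner kinase Cdk2 rose by 2.54 (SE 0.36, adjusted p = 0.0187) and Rbl1, a relative of the retinoblastoma protein, by 2.33 (SE 0.25, adjusted p = 0.0127). The gene that fell was Ccnd2, a D cyclin needed for the growth of beta cell mass after birth, with 64.2, 17.8 and 26.9 CPM in the tumors, 116 CPM in the library labelled NI1, and 680 and 848 CPM in NI2 and NI3. All tumors lay below all islet libraries (log2 fold change -4.41, SE 0.58, adjusted p = 0.0162, and -3.92, adjusted p = 0.0913, with 3 islet libraries). Ccnd1, a related D cyclin, had 19.2 to 74.3 CPM in tumors and 64.7 to 180 CPM in islets and did not pass (log2 fold change -2.03, adjusted p = 0.0691, without the library labelled NI1).

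Top2a, the topoisomerase that untangles chromosomes before division, had 325, 231 and 332 CPM in the tumors, 103 CPM in the library labelled NI1, and 43.7 and 14 CPM in NI2 and NI3. It rose by 3.34 (SE 0.55, adjusted p = 0.0259) without the library labelled NI1. Mki67, whose product is the proliferation marker Ki-67, had 134 to 352 CPM in tumors and 14.3 to 89.9 CPM in islets, and it did not pass in either fit (adjusted p = 0.162 and 0.0701). Aurkb, a kinase of the chromosomal passenger complex, rose by 2.93 (SE 0.45, adjusted p = 0.0225) without that library. For mitosis genes the library labelled NI1 stayed below the tumors, since every tumor lay above every islet library for 33 of 35 of them. This was so for 21 of 38 replication genes and for 2246 of all 15020 genes tested (15.0%).

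Brca2, which acts in the repair of broken DNA by homologous recombination, had 28.5, 27.1 and 98.4 CPM in M1, M2 and M3, 20.4 CPM in the library labelled NI1, and 3.40 and 2.3 CPM in NI2 and NI3. M3 alone was far above the other tumors. The log2 fold change was 4.15 (SE 0.75, adjusted p = 0.0322) without the library labelled NI1. Brca1, of the same repair pathway, changed by 3.60 (SE 0.36, adjusted p = 0.0119) and Fanca, of the crosslink repair complex, by 4.01 (SE 0.50, adjusted p = 0.0146) in the same fit.

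Of 8 inhibitors of the cell cycle kinases tested, 1 rose with 3 islet libraries and 4 without the library labelled NI1, with a median log2 fold change of 1.12 and 1.48. Cdkn1a, which encodes p21, a p53 target, had 148, 268 and 146 CPM in the tumors and 43.6, 37.0 and 34.2 CPM in the islet libraries. The library labelled NI1 lay with the other islet libraries here, and the change was called in both fits (log2 fold change 2.29, SE 0.29, adjusted p = 0.0297, and 2.39, SE 0.36, adjusted p = 0.0213). With 3 islet libraries, the 1 call of this list became 0 without any 1 of the tumors, NI2 or NI3. It was also 0 under limma-voom, with the replicate block and with the non-functional tumors in the fit, while DESeq2 called 3. Cdkn2a, the locus of p16 and Arf, had 35.6, 6.93 and 57.8 CPM in the tumors, 12.2 CPM in the library labelled NI1, and 0.938 and 0.562 CPM in NI2 and NI3. The library labelled NI1 exceeded M2, and the call was made only without it (log2 fold change 5.45, SE 1.04, adjusted p = 0.0357). Cdkn2c, an inhibitor of the kinases of the D cyclins, rose by 2.92 (SE 0.34, adjusted p = 0.013) and Cdkn1b, which encodes p27, by 0.94 (SE 0.19, adjusted p = 0.0419) in that fit.

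Of 20 genes of p53 and its targets, 2 rose with 3 islet libraries and 5 without the library labelled NI1, against 0.373% and 5.05% of all genes tested. The 2 became 0 without any 1 of the tumors, NI2 or NI3, and 0 with the non-functional tumors in the fit. Limma-voom and the replicate block each gave 1, and DESeq2 called 7. Besides Cdkn1a, the gene called in both fits was Eda2r, a receptor of the TNF family, with 32.1, 30.8 and 25.1 CPM in the tumors and 2.43, 1.01 and 0.767 CPM in the islet libraries (log2 fold change 4.37, SE 0.50, adjusted p = 0.0262). Phlda3, an inhibitor of the kinase Akt, had 35.1, 35.5 and 36.1 CPM in the tumors, a narrow range, and 13.8, 8.62 and 5.21 CPM in the islet libraries. It passed only without the library labelled NI1 (log2 fold change 2.35, SE 0.30, adjusted p = 0.0153), as did Pidd1, a p53-induced death domain protein (log2 fold change 2.92, SE 0.32, adjusted p = 0.013).

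Under edgeR, collagens and other proteins of the extracellular matrix gave the largest numbers of higher members among the lists with all 3 islet libraries, while DESeq2 called 31 mitosis genes, 15 collagens and 14 matrix genes. Of 20 collagen genes, 9 rose with 3 islet libraries and 15 without the library labelled NI1, none fell, and the median log2 fold change was 2.53 and 2.51. The 9 became 5, 2 and 1 without M1, M2 and M3, 0 and 5 without NI2 and NI3, and 0 when the non-functional tumors joined the fit, and the 15 became 1 when NI2 or NI3 was left out. Of 19 further genes of fibroblasts and matrix, 7 and 11 rose, with medians of 2.13 and 2.07, and the 7 became 0 when any 1 library other than the one labelled NI1 was left out. Col1a1, the main chain of type I collagen, had 236, 313 and 404 CPM in the tumors and 22.5, 24.0 and 25.6 CPM in the islet libraries. No islet library came near a tumor, and the library labelled NI1 was the lowest of the 6. The log2 fold change was 3.72 (SE 0.25, adjusted p = 0.01) and, without that library, 3.66 (SE 0.31, adjusted p = 0.00854).

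Col1a2, its partner chain, had 244, 273 and 308 CPM in the tumors and 35.8 to 45.2 CPM in the islet libraries (log2 fold change 2.77, SE 0.19, adjusted p = 0.01). Col3a1, the collagen of reticular fibers, had 229, 259 and 245 CPM against 35.7 to 50.3 CPM (log2 fold change 2.48, SE 0.19, adjusted p = 0.0131). Col8a1, a short-chain collagen, had 36.9, 38.7 and 45.5 CPM in the tumors, 4.41 CPM in the library labelled NI1, and 1.93 and 1.92 CPM in NI2 and NI3. Its log2 fold change was 3.87 (SE 0.41, adjusted p = 0.0236) with 3 islet libraries and 4.38 (SE 0.26, adjusted p = 0.00533) without the library labelled NI1, and it was the collagen whose call in the latter fit did not depend on any 1 library.

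Lox, which crosslinks collagen and elastin, had 28.1, 23.3 and 38.6 CPM in the tumors and 2.54, 1.32 and 0.562 CPM in the islet libraries (log2 fold change 4.34, SE 0.59, adjusted p = 0.0376). Fbn1, the fibrillin of microfibrils, changed by 2.78 (SE 0.27, adjusted p = 0.0225) and Postn, a matrix protein of activated fibroblasts, by 1.73 (SE 0.17, adjusted p = 0.0225). Dcn, the decorin gene that marks most fibroblasts, had 18.5, 46.6 and 64.4 CPM in the tumors and 24.3, 21.6 and 59.0 CPM in the islet libraries. These overlapped, and the log2 fold change was 0.31 (SE 0.55, adjusted p = 0.772). Of the pericyte and smooth muscle genes 0 of 11 passed under edgeR and limma-voom with 3 islet libraries, with 5 higher at an unadjusted p under 0.05 and 4 by DESeq2. Without the library labelled NI1 the 3 that rose were Mcam (log2 fold change 1.45), Tagln (1.09) and Acta2 (0.91), with adjusted p of 0.0137, 0.026 and 0.0442, and for Acta2, the smooth muscle actin, the library labelled NI1 had the lowest level (12.6 CPM). The endothelial genes gave 0 calls of 16 in either fit of edgeR (6 were lower at an unadjusted p under 0.05 in each, and DESeq2 called 3 and 2 lower), and their median log2 fold change was -0.31 and -0.25. Pecam1, an adhesion molecule of endothelium, had 65.0 to 150 CPM in tumors and 114 to 144 CPM in islets.

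**Figure D3:**
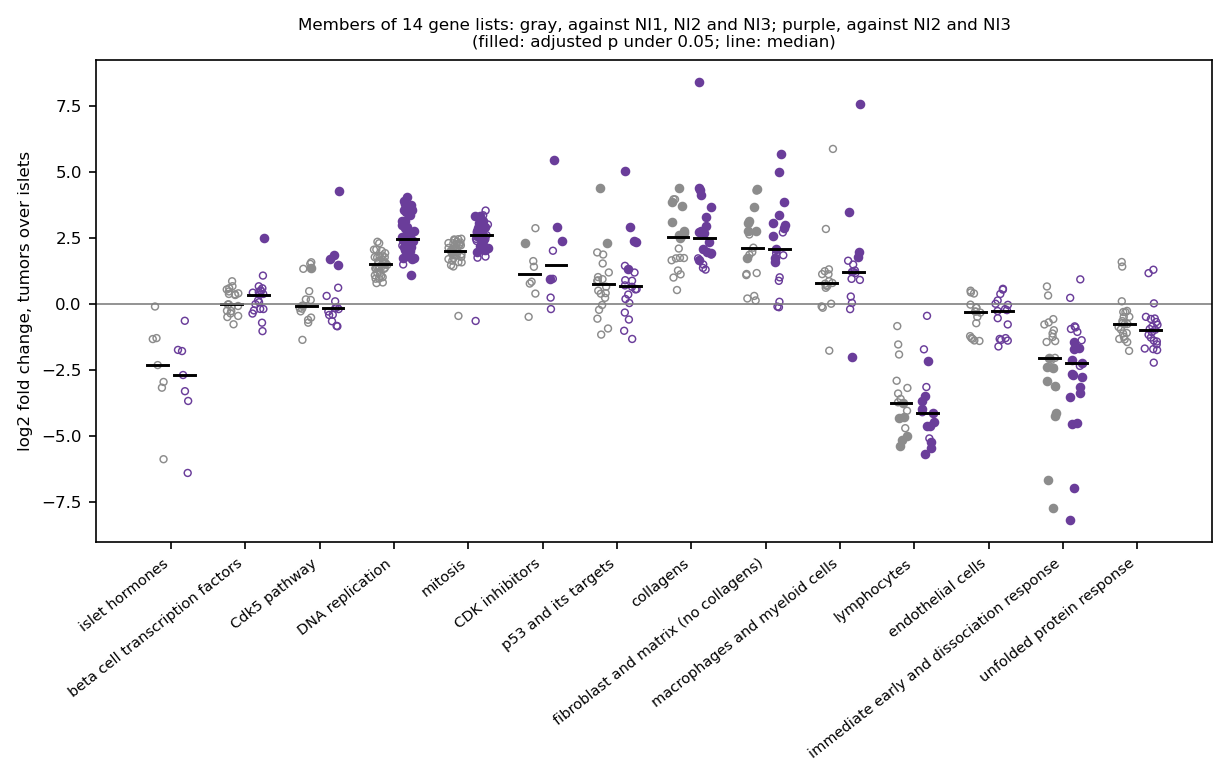
Log2 fold change of tumors over islets for each tested member of 14 gene lists, against all 3 islet libraries (gray) and against NI2 and NI3 (purple), with filled points for an adjusted p under 0.05 and a line at the median of the list. Collagen and matrix genes kept their medians between the fits (2.53 and 2.51 for collagens), while the median of DNA replication went from 1.5 to 2.47.

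Immune genes went in both directions. Of 16 macrophage and myeloid genes, 0 passed under edgeR with 3 islet libraries (5 higher and 1 lower with an unadjusted p under 0.05, 2 and 1 by DESeq2, 0 by limma-voom), and without the library labelled NI1 4 rose and 1 fell. Mrc1, the mannose receptor of tissue macrophages, had 25.8, 15.3 and 41.3 CPM in the tumors, 6.64 CPM in the library labelled NI1, and 2.49 and 2.38 CPM in NI2 and NI3 (log2 fold change 3.48, SE 0.50, adjusted p = 0.0192). Adgre1, which encodes F4/80, rose by 1.78 and Cd68, a lysosomal protein of macrophages, by 1.97 (adjusted p = 0.0281 and 0.0232). Csf1r, the receptor that macrophages need to survive, did not pass (0.95, adjusted p = 0.0911). The member that fell was Ptprc, the CD45 gene of all leukocytes, with 15.6, 15.6 and 21.6 CPM in the tumors and 39.7, 76.6 and 63.2 CPM in the islet libraries (log2 fold change -2.0, SE 0.23, adjusted p = 0.013).

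Of 16 lymphocyte genes, 6 fell with 3 islet libraries and 11 without the library labelled NI1, and none rose. The median gene of the list had 0.249, 0.340 and 0.778 CPM in M1, M2 and M3. A member under 1 CPM in every tumor could only fall, as it was tested only through the islet libraries. The 6 became 0 without any 1 of the tumors or NI2, 2 without NI3, 0 under limma-voom and 1 with the replicate block, while DESeq2 called 15. The 11 became 3 when NI2 or NI3 was left out. Ms4a1, which encodes the B cell antigen CD20, had 0.727, 0.376 and 0.673 CPM in the tumors and 13.6, 29.7 and 29.4 CPM in the islet libraries. With under 1 CPM in every tumor, it was tested only because all 3 islet libraries reached 1 CPM. Tumors and islets were far apart, with the library labelled NI1 in between but nearer to the islets. Its log2 fold change was -5.36 (SE 0.49, adjusted p = 0.0225) with 3 islet libraries. Cd79b, part of the B cell receptor, changed by -4.30 (SE 0.40, adjusted p = 0.0225), and Lck, the T cell kinase, by -3.73 (adjusted p = 0.0468). Cd3e, part of the T cell receptor, had 0.270 to 0.750 CPM in tumors and 2.28 to 7.38 CPM in islets, and passed only without the library labelled NI1 (-3.96, adjusted p = 0.0229). Like Ms4a1, it was tested only because all 3 islet libraries reached 1 CPM.

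Genes of pancreatic acinar cells, which make digestive enzymes, were for the most part close to 0 in the tumors. The median gene tested had 0.0208, 0.0145 and 0.0192 CPM in M1, M2 and M3. A gene under 1 CPM in every tumor was tested only because all 3 islet libraries reached 1 CPM, so it could only fall. That limit held for Amy2a5, Cpa1 and Cela3b, named below. Of 23 tested, 11 fell with 3 islet libraries and 21 without the library labelled NI1, and the median fitted log2 fold change of -12.78 became -11.36 when the 5 genes without a count in any tumor were set to the limit that 3 counts per library allow. Amy2a5, a pancreatic amylase, had 0.249, 0.101 and 0.0577 CPM in the tumors, 363 CPM in the library labelled NI1, 471 CPM in NI2 and 6826 CPM in NI3 (adjusted p = 0.0376). Here, the library labelled NI1 stood beside NI2, and NI3 was far above both. The same order was seen for Cpa1, a carboxypeptidase, with 42.1, 48.0 and 688 CPM in the islet libraries and at most 0.0208 CPM in a tumor (adjusted p = 0.0384).

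The acinar calls depended on the tool. DESeq2 called 0 of the 23 with 3 islet libraries and 21 without the library labelled NI1, and limma-voom called 0 in either fit, while 21 had an unadjusted p under 0.05 in both edgeR fits. The 11 became 0 without any 1 of the tumors or NI2, and 15 without NI3. In the fit without the library labelled NI1, the 21 became 11, 16 and 8 when M1, M2 or M3 was left out. Summed over the acinar genes tested, the islet libraries held 586, 737 and 9663 CPM and the tumors 67.5, 81.3 and 23.6 CPM. Acinar enzymes are not made by endocrine cells, and their part in other differences was not tested. Cela3b, an elastase, had no count in any tumor and was at least 2632-fold lower there than the mean of the 3 islet libraries, taking 3 counts per library as the limit (adjusted p = 0.0892, and 0.0371 without the library labelled NI1). Amylases, trypsins and elastases are families of near-identical genes, so the split of reads among members such as Amy2a4, Amy2a5, Try4 and Try5 is uncertain. Krt19, a keratin of duct cells, had 2.29, 45.1 and 86.3 CPM in the tumors and 2.46 to 8.15 CPM in the islet libraries, and no duct or keratin gene passed among 13 tested with edgeR or limma-voom in either fit. DESeq2 called 2 of the 13 higher with 3 islet libraries and 1 without the library labelled NI1, and at an unadjusted p under 0.05 edgeR had 2 higher, and 1 higher and 1 lower.

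Immediate early genes, which are switched on within minutes by stimuli that include the handling of tissue, were lower in tumors. Of 23 genes tested, 9 fell with 3 islet libraries and 15 without the library labelled NI1, none rose, and the median log2 fold change was -2.04 and -2.25. Fos, a subunit of the AP-1 factor, had 1.95, 2.87 and 3.32 CPM in the tumors, 164 CPM in the library labelled NI1, and 1086 and 454 CPM in NI2 and NI3. Each islet library exceeded each tumor by more than an order of magnitude (log2 fold change -7.71, SE 0.83, adjusted p = 0.0236). Zfp36, which destabilizes cytokine mRNA, changed by -3.10 (SE 0.33, adjusted p = 0.0236), Ier2 by -2.43 (SE 0.35, adjusted p = 0.0398) and Junb, an AP-1 subunit, by -2.37 (SE 0.37, adjusted p = 0.0468). The study states CO2 euthanasia with cardiac perfusion for its animals and column extraction of RNA from tissue, and the part of handling was not tested. Without M1, M2, M3 or NI2 the 9 became 0, without NI3 and under limma-voom 1, and DESeq2 called 16.

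Many immediate early genes answer to CREB through the letters TGACGTCA. That run was found in the promoters of 3 of the 20 listed genes with an entry (15%), against 392 of the 11147 tested genes (3.52%). It was not particular to this list, since 4 of 16 genes of neuroendocrine granules (25%) held it. Of the genes called lower and higher without the library labelled NI1, 16 of 360 (4.44%) and 17 of 556 (3.06%) did. The matches before the start of Dusp1 and Btg2 are shown, with capitals for the match.
Dusp1, chr17:26508592-26508631, minus strand: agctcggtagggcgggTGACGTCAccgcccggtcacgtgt
Btg2, chr1:134079298-134079337, minus strand: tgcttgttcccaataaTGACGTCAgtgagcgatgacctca
Dusp1, a phosphatase that switches off MAP kinases, fell by 2.76 on the log2 scale (SE 0.31, adjusted p = 0.013) and Btg2, an antiproliferative gene, by 1.65 (SE 0.28, adjusted p = 0.0285), both without the library labelled NI1. The promoter entries of Fos, Zfp36 and Junb held no such run. Dusp1 and Btg2 were named after their promoters were searched.

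Stress genes of other kinds gave few calls. Of 16 cytosolic heat shock genes, 0 passed with 3 islet libraries under edgeR (2 were lower at an unadjusted p under 0.05 and by DESeq2), and 2 fell without the library labelled NI1, the near-identical pair Hspa1a and Hspa1b, whose reads are hard to assign to 1 or the other. Hspa1b had 3.51, 2.79 and 5.15 CPM in the tumors, 5.04 CPM in the library labelled NI1, and 76.6 and 84.2 CPM in NI2 and NI3, so that the library labelled NI1 lay among the tumors (log2 fold change -4.41, SE 0.31, adjusted p = 0.00612). Under edgeR, the 21 genes of the unfolded protein response had 0 calls in either fit and a median log2 fold change of -0.76 and -0.97, the 14 genes of MHC class I presentation 0 calls and -0.47 and -0.60, and the 21 genes of glycolysis and hypoxia 0 calls and 0.09 and 0.07. At an unadjusted p under 0.05 the unfolded protein response had 4 and 12 lower genes, and DESeq2 called 1 and 11 lower. MHC class I had 2 lower genes in each fit at that p, of which DESeq2 called 0 and 2. Glycolysis and hypoxia had 3 higher and 2 lower with 3 islet libraries and 1 and 2 without the library labelled NI1, where DESeq2 called 1 and 0, and 1 and 2. Limma-voom called 0 in these lists. Of the 14 genes that are mutated in human pancreatic neuroendocrine tumors, 0 were called by edgeR or limma-voom (3 were higher at an unadjusted p under 0.05 in each fit, and DESeq2 called 0 and 2), and Men1, which encodes menin, had 45.2 to 51.6 CPM in tumors and 52.2 to 67.1 CPM in islets.

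Among the remaining lists, the enzymes of DNA methylation and of the polycomb complexes gave 0 calls under edgeR and limma-voom with 3 islet libraries (7 higher and 1 lower with an unadjusted p under 0.05, 5 and 1 by DESeq2) and 6 of 18 higher without the library labelled NI1. Ezh2, the histone H3 lysine methyltransferase of the polycomb complex, had 41.4, 55.4 and 68.0 CPM in the tumors, 28.2 CPM in the library labelled NI1, and 10.4 and 7.16 CPM in NI2 and NI3 (log2 fold change 2.63, SE 0.32, adjusted p = 0.0139). Dnmt1, which copies DNA methylation after replication, rose by 2.01 (SE 0.26, adjusted p = 0.0153). Sfrp1 and Sfrp2, secreted inhibitors of Wnt signals, rose in both fits, by 4.66 (SE 0.74, adjusted p = 0.0471) and 5.87 (SE 0.79, adjusted p = 0.0376) with 3 islet libraries. Sfrp1 had 8.60, 34.9 and 40.3 CPM in the tumors and 0.575, 0.964 and 1.79 CPM in the islet libraries, and Frzb, a relative, had 151 to 260 CPM in tumors and 214 to 346 CPM in islets without passing.

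Npy, a neuropeptide that beta cells make in fetal life, had 58.9, 101.5 and 56.5 CPM in the tumors, 23.1 CPM in the library labelled NI1, and 1.98 and 1.35 CPM in NI2 and NI3. It rose by 5.43 (SE 0.45, adjusted p = 0.00781) without the library labelled NI1. Vip, a neuropeptide of pancreatic nerves, had 6.10, 5.33 and 10.8 CPM in the islet libraries, 0.0208 CPM in M1 and no count in M2 and M3 (adjusted p = 0.0225 with 3 islet libraries). Vip was tested only because all 3 islet libraries reached 1 CPM, which set its direction in advance. Igf1, the growth factor, rose by 2.63 (SE 0.36, adjusted p = 0.0179) without the library labelled NI1. Igf2, its fetal relative, had 692 and 420 CPM in M1 and M3 but 2.34 CPM in M2, 729 CPM in the library labelled NI1, and 9.74 and 11.6 CPM in NI2 and NI3. Neither the tumors nor the islets were alike in it, and it passed in neither fit.

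Phgdh, the first enzyme of serine synthesis, fell by 4.28 (SE 0.73, adjusted p = 0.0278) without the library labelled NI1, from 65.8 and 98.5 CPM in NI2 and NI3 to 1.44 to 8.15 CPM in the tumors, with 25.5 CPM in the library labelled NI1. Fev, a transcription factor of islet progenitors and serotonin neurons, had at most 0.0623 CPM in a tumor and 11.5, 1.27 and 5.70 CPM in the islet libraries (log2 fold change -6.92, SE 1.01, adjusted p = 0.0417). Dsc3, a desmosomal cadherin, had no count in any tumor and 3.99, 2.84 and 5.32 CPM in the islet libraries, and so was at least 76.1-fold lower (adjusted p = 0.0262). Fev and Dsc3 were tested only because all 3 islet libraries reached 1 CPM, which set their direction in advance. Aldh1a3, a marker of failing beta cells, ranged from 26.7 to 547 CPM in the tumors and from 14.5 to 113 CPM in the islet libraries and did not pass (adjusted p = 0.249).

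Among protein-coding genes called with 3 islet libraries, the highest log2 fold changes were those of Kcnj5 (7.28, SE 1.09, adjusted p = 0.0441), a subunit of G protein-gated potassium channels, and Ccl8 (6.36, SE 1.03, adjusted p = 0.0481), a chemokine for monocytes. Kcnj5 had 6.4, 50.3 and 9.34 CPM in the tumors and at most 0.230 CPM in an islet library. Ccl8 had 3.18, 4.01 and 24.3 CPM against at most 0.144 CPM. Kcnj5 and Ccl8 were tested only because all 3 tumors reached 1 CPM, which set their direction in advance. Also among the 12 highest were Sfrp2, Sfrp1, Col12a1, Eda2r, Lox and Col8a1, named above or of the same families, the macrophage genes Folr2 (a folate receptor), Gpnmb and F13a1 (a coagulation factor subunit), and Mfap4, of elastic fibers. The 12 lowest were the acinar genes Prss2, Amy2a5, Cpa1, Cela2a, Cpb1, Ctrb1, Try5, Clps, Sycn, Pnliprp1 and Pnlip together with Cpb2, the gene of a carboxypeptidase of plasma.

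With NI2 and NI3 as the islets, the 12 highest protein-coding genes were Rph3a, Trpc7, Prn, Pram1, Lypd1, Col10a1, Ccdc13, Hpca, Cd163, B3gat1, Kcnj5 and Plekhg4. Hpca, the calcium sensor hippocalcin, had 57.9, 72.6 and 132 CPM in the tumors, 26.7 CPM in the library labelled NI1, and 0.355 and 0.281 CPM in NI2 and NI3 (log2 fold change 8.08, SE 0.57, adjusted p = 0.00612). B3gat1, the enzyme of the CD57 carbohydrate of nerve and neuroendocrine cells, had 48.5, 32.0 and 107 CPM, 20.0 CPM, and 0.507 and 0.409 CPM (log2 fold change 7.06, SE 0.73, adjusted p = 0.0119). In both, the library labelled NI1 was below the tumors and far above NI2 and NI3. Rph3a, a rabphilin of secretory vesicles, Trpc7, a cation channel, and Prn had no count in NI2 or NI3 and were at least 158-fold, 142-fold and 104-fold higher in tumors, while the library labelled NI1 had between 0.809 and 2.28 CPM of them. Without a count in NI2 and NI3, these genes could pass the filter only through the tumors and the library labelled NI1.

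The genes called whichever library was left out of the fit without the library labelled NI1 were looked up after their values were seen. The 6 higher ones were Gm28661, Clstn2 (a synaptic calsyntenin), the long noncoding RNA AC141882.2, Speg (a muscle kinase), Col8a1 and Cadm1 (a cell adhesion molecule). Clstn2 had 69.3, 77.1 and 75.7 CPM in the tumors, 16.9 CPM in the library labelled NI1, and 1.04 and 1.51 CPM in NI2 and NI3. Speg had 59.6, 59.4 and 62.2 CPM, 66.1 CPM, and 3.07 and 2.61 CPM, so the library labelled NI1 was the highest of the 6. Cadm1 had 162, 112 and 152 CPM in the tumors, 27.6 CPM in the library labelled NI1, and 6.87 and 11.1 CPM in NI2 and NI3. Among the 23 lower ones were 8 acinar genes, the B cell genes Cd79b, Ms4a1, Pax5, Spib, Fcmr and Ighd, the immediate early genes Fos, Fosb and Zfp36, and also Hspa1b, Ache (acetylcholinesterase), Dpp4 (a peptidase that cleaves incretins), Ckb (brain creatine kinase) and Myo15b. Dpp4 had 3.39, 3.40 and 4.17 CPM in the tumors, 10.7 CPM in the library labelled NI1, and 72.9 and 85.5 CPM in NI2 and NI3 (log2 fold change -4.45, SE 0.22, adjusted p = 0.00439).

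Gm28661 was the gene that kept its call in every fit that left out 1 library with the 3 islet libraries in the comparison, and it was the only such gene. It is annotated as an unprocessed pseudogene on chromosome 1, from 24614885 to 24615565, and had 942, 1116 and 921 CPM in the tumors and no count in any islet library. It was at least 14805-fold higher in tumors (adjusted p = 0.00677), taking 3 counts per library as the limit. Gm28439, in the same stretch (24611535 to 24612410), had 432, 66.5 and 371 CPM in the tumors and no count in an islet library either, and was at least 4318-fold higher (adjusted p = 0.0376). For both genes, then, the library labelled NI1 was like NI2 and NI3 and unlike any tumor. Both were tested only because all 3 tumors reached 1 CPM. Their direction was set in advance, in each fit that left out 1 library as well.

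Their neighbors in this run of 7 unprocessed pseudogenes had counts in all 6 libraries. Gm10222 had 210, 278 and 209 CPM in the tumors, 200 CPM in the library labelled NI1, and 71.1 and 41.7 CPM in NI2 and NI3, and rose by 2.03 (SE 0.32, adjusted p = 0.0236) without the library labelled NI1. Gm28437 had 3298, 5780 and 2907 CPM in the tumors and 3709, 2427 and 1381 CPM in the islet libraries, and Gm10925 had 4361, 7740 and 4072 CPM against 4825, 3727 and 2370 CPM, so that both overlapped. The remaining 2 were not called. These genes were named after their values were seen. This run of pseudogenes is a nuclear copy of mitochondrial sequence, so how the authors' quantification split reads between the copies and the mitochondrial genes can set their levels, and this was not tested. Of 13 mitochondrially encoded protein genes, 0 passed with 3 islet libraries, adjusted or not and by each of the 3 tools, and without the library labelled NI1 the 1 that rose was mt-Atp8, with 218, 312 and 191 CPM in the tumors, 185 CPM in the library labelled NI1, and 52.2 and 20.4 CPM in NI2 and NI3 (log2 fold change 2.72, SE 0.49, adjusted p = 0.0322).

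The library labelled NI1 took no part in the fit against NI2 and NI3, and its level is set beside the genes called there. It did count in the filter that chose the genes tested. A gene under 1 CPM in every tumor was tested only if this library, too, reached 1 CPM. For such genes it could not lie with the tumors. Its position was measured on log2(CPM + 1) as 0 at the mean of NI2 and NI3 and 1 at the mean of the tumors. Over the 758 higher genes the median position was 0.668 (25th to 75th percentile, 0.493 to 0.837), and over the 507 lower genes it was 0.467 (0.324 to 0.654). It reached the range of the tumors for 189 of the higher and 52 of the lower genes, and lay at or within the level of NI2 and NI3 for 40 and 36.

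The median position was not the same for all gene groups. Among lists with at least 10 genes called in a direction, it was highest for the 35 DNA replication genes, with a median of 0.789, and 14 of the 35 reached the tumors' range. For the 19 mitosis genes it was 0.537 and for the 15 genes of homologous recombination 0.669. Among those lists it was lowest for the 15 collagens (0.165) and the 11 genes of fibroblasts and matrix (0.18), of which 4 in each list lay at or below the level of NI2 and NI3. Lower genes of acinar cells, immediate early response and lymphocytes lay at 0.327, 0.345 and 0.409. For genes under 1 CPM in every tumor, as many acinar genes were, the filter partly set these positions. In words, the library labelled NI1 lay with the tumors for Cdk5r1 and with NI2 and NI3 for Gm28661, and between the groups for most called genes, among them 21 of the 35 replication genes and 10 of the 15 collagens. What this library holds was not tested, and no order among these medians was tested.

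**Figure D4:**
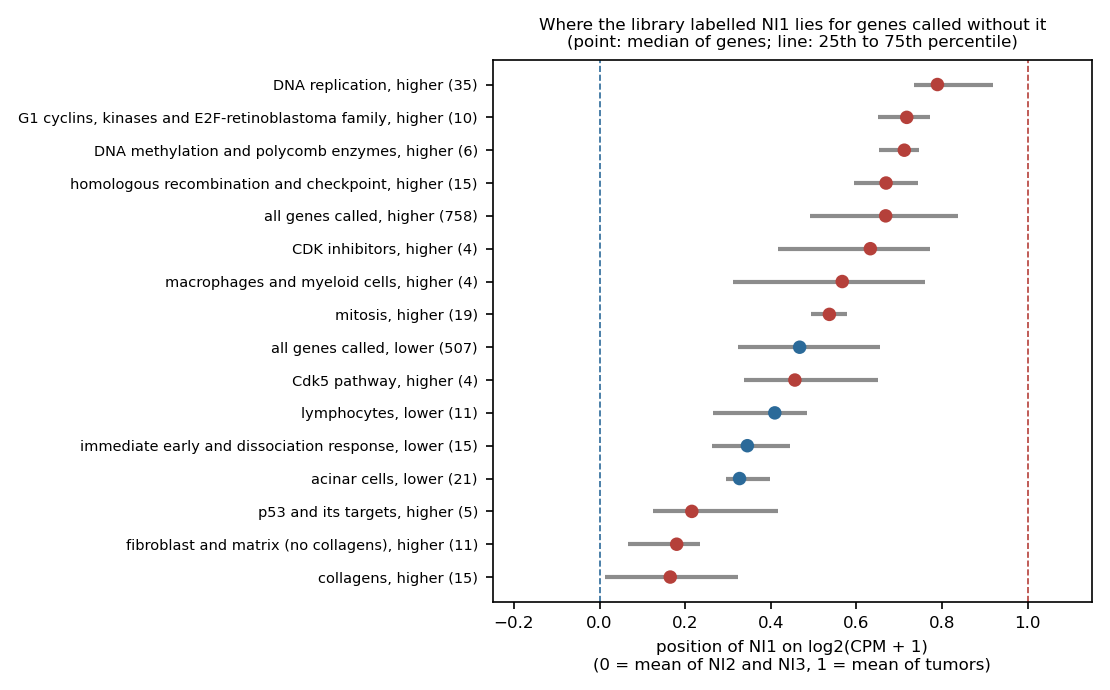
Position of the library labelled NI1 between the mean of NI2 and NI3 (0, blue dashed line) and the mean of the tumors (1, red dashed line) on log2(CPM + 1), for genes called without it, by list and direction (red, higher in tumors; blue, lower), with the number of genes in parentheses. Points are medians and lines run from the 25th to the 75th percentile of genes. Collagens (0.165) lie near NI2 and NI3, and DNA replication genes (0.789) near the tumors.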

How the data were processed

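Single-end RNA reads were trimmed by the authors with Trimmomatic 0.38 and quantified with salmon 1.4.0 against mm10, and the study tested with DESeq2. The values the authors deposited are estimated counts per gene, already whole numbers and not scaled between libraries, and they were not rounded further. The step from transcripts to genes is not given in the sources used here. Symbols and coordinates came from GENCODE vM21 (GRCm38) for 54094 of 54347 genes. The other 253 took 0.0121% of all counts.

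A gene was tested if 3 or more of the 6 libraries reached 1 CPM, with edgeR 4.0.16 in R 4.3.3 (TMM, quasi-likelihood test, two-sided, Benjamini-Hochberg). The same genes were tested without the library labelled NI1. A gene under 1 CPM in all 3 libraries of a group was tested only if the other 3 all reached 1 CPM, which set its direction in advance. SE is the log2 fold change over the square root of F. A p-value sets the difference between groups against the spread between these samples, which edgeR estimates with information shared across genes. A count of 3 was the detection limit, which covers counting error only. On simulated counts of 15020 genes with a dispersion of 0.1, 98% of 4-fold and 11% of 2-fold changes were recovered with 3 islet libraries, with 4.39% false calls. Without the library labelled NI1, 79% and 4% were recovered, with 3.49% false calls. The simulated libraries of a group differed only by this 1 dispersion, while here the library labelled NI1 lay apart from NI2 and NI3. These shares check the procedure and do not give the power or the false calls of the comparisons reported here.

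Members and gene lists were chosen with earlier results of these data known. Named genes are a written set, the 12 highest and 12 lowest protein-coding log2 fold changes of each fit among calls with separate groups (without predicted genes), and in each list the 4 members with the smallest p without the library labelled NI1. Xist, Fosb, the genes of the chromosome 1 run, those kept in every fit, and Dusp1 and Btg2 were named after their values were seen. Alternatives covered scaling, filter, tool, grouping, a replicate block, mitochondrial genes, the fold and each library left out. Some genes are not reported here.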

Additional observations from a re-analysis of the deposited data

How the results depend on the processing

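The number of calls depended on the processing more than their direction did. With 3 islet libraries (56 higher and 107 lower genes), DESeq2 called 880 and 923, limma-voom 14 and 10, no filter on low counts 133 and 219, and a fit that also held the non-functional tumors 9 and 75. Leaving out 1 library gave 1 to 758 higher and 0 to 507 lower genes, the upper ends without the library labelled NI1. Without that library (758 and 507), DESeq2 called 2082 and 1533, limma-voom 494 and 496, and leaving out 1 more library gave 9 to 981 and 38 to 752.

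A replicate block, which treats libraries of the same number as a pair, gave 10 and 24 genes with 3 islet libraries and 602 and 444 without the library labelled NI1. Same-numbered libraries deviated from their group means with correlations of -0.05, 0.03 and -0.17, so the numbers were not taken as a pairing.

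Among the log2 fold changes of the named genes, 7 alternative values with 3 islet libraries and 6 without the library labelled NI1 turned their sign, all for genes not called in that fit. When 1 library was left out with 3 islet libraries in the comparison, Cdk5 ranged from -0.12 to 0.0033, Dcn from -0.10 to 0.91, Igf2 from -0.24 to 5.10, Mafa from -0.64 to 0.036 and Sst from -4.08 to 2.14. Without the library labelled NI1, Dcn ranged from -0.47 to 0.99, Mafa from -0.57 to 0.11, Pecam1 from -0.57 to 0.047 and Sst from -4.63 to 1.48. The cause of these shifts was not tested. DESeq2 size factors, edgeR's own expression filter and the removal of mitochondrial genes kept both pairs of counts within 1.5 times.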
